A study of Mus musculus with 12 samples.

Results

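The genes described here are 9 markers of inflammatory monocytes, Ly6c2, Plac8, Chil3, Ifitm6, Vcan, Fn1, Gda, S100a4 and Ms4a4c, followed by name through both tables of normalized counts. All 9 were matched among 55401 gene IDs, had reads in 11 or 12 of the 12 libraries and passed the filter on low values in every comparison. The libraries came from CD45+/CD11b+/Ly6G- cells sorted from the hind paws of adult mice 4 h after saline or 1% carrageenan, a seaweed polysaccharide that provokes acute inflammation, was injected into the paw. Both genotypes carried the floxed Fabp5 allele: FABP5Flox mice, called Flox, and FABP5Flox/LysM-Cre mice, a myeloid conditional knockout called cKO. Cre in cKO mice is driven from the lysozyme M gene, which is active in monocytes, macrophages and neutrophils. No group had LysM-Cre without the floxed allele, so the effects of the Cre and of the loss of Fabp5 cannot be told apart. Each of the 4 groups held 3 libraries, and a library pooled the cells of 3 or 4 mice, which makes 10 mice in a Flox group and 12 in a cKO group. Libraries are named by their mouse numbers, 1-3, 4-7 and 8-10 in Flox and 1-4, 5-8 and 9-12 in cKO.

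Classical monocytes are made in the bone marrow, circulate with high surface Ly6C in mice, and enter inflamed tissue, where they lose monocyte genes as they become macrophages or dendritic cells. Tissue-resident macrophages, which share the CD11b gate with them, are marked by other genes such as Cd163, Lyve1 and the C1q genes. The 9 markers serve different roles: surface proteins (Ly6c2, Ms4a4c, Ifitm6), a secreted chitinase-like protein (Chil3), a small cysteine-rich protein (Plac8), matrix molecules (Vcan, Fn1), a purine enzyme (Gda) and a calcium-binding protein (S100a4). In bulk RNA, more cells of a type and more RNA per cell cannot be told apart.

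Reads in genes ranged from 111925 in Flox saline 1-3 to 2987015 in cKO saline 5-8, and 1 read equalled 5.55 and 0.255 normalized counts in these libraries. Of the cKO libraries 5 were deeper than every Flox library (111925 to 994161 reads), so depth and genotype cannot be told apart in most of the data. The exception was cKO carrageenan 9-12, with 508407 reads, fewer than Flox saline 8-10 and Flox carrageenan 8-10 held. The sorted cells held the transcripts of the gate: Ptprc (CD45) had 8558 reads and Itgam (CD11b) 6232 over all libraries, and Ly6g had 4. Fabp5, the targeted gene, ranged with carrageenan from 34.2 to 98.6 normalized counts in Flox and from 6.15 to 23.2 in cKO. With saline its Flox range, 5.55 to 35.2, overlapped that of cKO, 4.08 to 11.2. Several levels below stand on few reads, since the Flox saline libraries held 41 to 82 reads in all of each of Ly6c2, Plac8, Chil3, Ifitm6, Vcan and Ms4a4c. Values are normalized counts with all 12 libraries on 1 scale unless stated otherwise, and intervals and floors cover counting or replicate error only.

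Promoter sequences are shown for 4 of the markers because they carry short motifs of myeloid or cytokine-driven factors, in genes whose carrageenan responses differ below. The sequences are RefSeq's for GRCm38.p6, from 250 bases before to 50 after the annotated start, 5′ to 3′ on the gene's strand. Entries were found for 8 of the 9 markers, and Fn1 had none in the table used. Capitals mark GAGGAAGT (a PU.1 motif) in Ly6c2 (chr15:75111922-75112221, minus strand) and, on the opposite strand, in S100a4 (chr3:90603520-90603819, plus strand). They mark TTCNNNGAA (a gamma-activated, STAT-type motif) in Chil3 (chr3:106167515-106167814, minus strand) and Ifitm6 (chr7:141016843-141017142, minus strand).
Ly6c2: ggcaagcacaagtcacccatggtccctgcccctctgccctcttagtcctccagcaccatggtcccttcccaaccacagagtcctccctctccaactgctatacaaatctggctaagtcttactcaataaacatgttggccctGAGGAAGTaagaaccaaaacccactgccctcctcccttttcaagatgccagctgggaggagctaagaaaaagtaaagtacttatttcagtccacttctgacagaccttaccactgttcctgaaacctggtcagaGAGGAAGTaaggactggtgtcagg
S100a4: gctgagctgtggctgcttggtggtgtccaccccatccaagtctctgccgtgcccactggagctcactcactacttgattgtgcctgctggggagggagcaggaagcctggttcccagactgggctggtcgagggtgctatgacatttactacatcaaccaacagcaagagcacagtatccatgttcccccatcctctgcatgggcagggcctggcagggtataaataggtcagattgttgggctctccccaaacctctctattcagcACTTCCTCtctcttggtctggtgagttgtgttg
Chil3: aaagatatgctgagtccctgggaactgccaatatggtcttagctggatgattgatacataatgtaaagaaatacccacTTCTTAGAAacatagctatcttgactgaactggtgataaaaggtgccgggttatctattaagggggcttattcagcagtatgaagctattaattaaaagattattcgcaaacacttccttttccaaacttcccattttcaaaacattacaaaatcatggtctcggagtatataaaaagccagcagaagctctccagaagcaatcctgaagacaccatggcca
Ifitm6: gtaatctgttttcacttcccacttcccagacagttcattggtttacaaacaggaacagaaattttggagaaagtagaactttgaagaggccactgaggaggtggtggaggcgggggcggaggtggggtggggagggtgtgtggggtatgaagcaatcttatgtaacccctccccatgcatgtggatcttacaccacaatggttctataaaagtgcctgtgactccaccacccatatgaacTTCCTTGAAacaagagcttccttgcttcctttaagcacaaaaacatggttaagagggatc
The motifs were searched on both strands. GAGGAAGT was found in 3.20% of 32817 promoters of this length and in 2 of the 8 markers with an entry. In Ly6c2 it began 108 bases before the start and again 27 bases after it, and in S100a4 18 bases after it. Another annotated start of Ly6c2 (chr15:75111888-75112187) places its matches 142 and 8 bases before the start. TTCNNNGAA was found in 8.29% of promoters and in 2 of the 8 markers, 172 bases before the start in Chil3 and 10 bases before it in Ifitm6. TTGCNNAA, a C/EBP-type motif found in 10.8% of promoters, was present in Plac8 and Gda. In Plac8 it was in the entry at chr5:100563047-100563346 and not in that at chr5:100572156-100572455. The core of the interferon-stimulated response element (AAANNGAAA, 10.5% of promoters), the NF-kB motif GGANTTTCC (1.26%) and the AP-1 motif TGANTCA (7.81%) were in none of the 8. No 2 of the motifs overlapped in the promoters printed. Ly6c2 and S100a4 thus shared a motif and differed in their carrageenan response, as given next, and a match is a description of the letters, not of binding.

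Carrageenan raised 6 of the 9 markers in Flox mice, with log2 fold changes of 3.21 to 4.25, and left Fn1, Gda and S100a4 short of the threshold. Those that rose were Ly6c2, Ms4a4c, Ifitm6, Chil3, Plac8 and Vcan (limma, adjusted p under 0.05 over all genes). Among all 10240 genes tested, 4.42% were called higher in this comparison. The median log2 fold change was 3.40 over the 9 markers and 0.10 over all genes. For the same 6 markers every Flox carrageenan library lay above every Flox saline library, which held for 13% of all genes.

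Ly6c2 (chr15:75108158-75111970) encodes a GPI-anchored protein that forms part of the Ly6C epitope used to sort classical monocytes. It stood at 16.6, 53.9 and 55.0 normalized counts in the Flox saline pools and at 396, 374 and 424 in the Flox carrageenan pools. In cKO it stood at 13.3, 20.9 and 39.0 with saline and at 109, 184 and 523 with carrageenan. The treated and control libraries did not overlap in either genotype. The 3 Flox carrageenan pools lay close together, and the cKO carrageenan pools were spread from below to above them. The log2 fold change of carrageenan over saline was 3.40 ± 0.55 (± SE, limma adjusted p = 0.00256, 3 libraries against 3) in Flox. It was 3.25 ± 0.55 in cKO (limma adjusted p = 0.00554). The neighbouring copy Ly6c1 shares 95.7% of the last 300 bases of the transcript with Ly6c2, and 29.9% of the 50-base windows there occur in both, so reads of a 3′ library can be split between them. Ly6c1 held 478 reads over all libraries against 2363 for Ly6c2. Its log2 fold change was 2.71 ± 0.83 in Flox (limma adjusted p = 0.0637) and 0.88 ± 0.83 in cKO (limma adjusted p = 0.932). How much of the Ly6c2 signal belongs to Ly6c1 was not tested.

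Ms4a4c (chr19:11404770-11427246) encodes a membrane protein of the MS4A family, which also holds CD20. Its Flox values were 22.2, 21.1 and 30.2 with saline and 246, 326 and 257 with carrageenan. Its cKO values were 12.2, 14.5 and 21.3 with saline and 66.0, 145 and 346 with carrageenan. The saline libraries of both genotypes were low and close to each other, and the carrageenan libraries were all higher. Ms4a4c had the smallest standard error of the 6 markers that rose, with a log2 fold change of 3.45 ± 0.46 in Flox (limma adjusted p = 0.000907) and 3.18 ± 0.46 in cKO (limma adjusted p = 0.00188). Its near copy Ms4a4b shared 21.1% of the windows and held only 42 reads, against 1603 of Ms4a4c.

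Ifitm6 (chr7:141015699-141017924) belongs to the interferon-induced transmembrane family, whose better known members restrict virus entry. In Flox it was 0, 23.4 and 38.8 with saline and 246, 153 and 174 with carrageenan. The 0 came from Flox saline 1-3, the shallowest library, where 3 reads, the floor used here, would stand for 16.4 normalized counts on the deposited scale. In cKO it was 17.0, 24.5 and 24.8 with saline and 80.4, 124 and 258 with carrageenan. The groups did not overlap in either genotype. The log2 fold change was 4.25 ± 0.96 in Flox (limma adjusted p = 0.0153) and 2.60 ± 0.96 in cKO, where it did not pass the threshold (limma adjusted p = 0.244). The standard error is shared by both genotypes and takes in the library without reads. The Flox response was 2.85 by edgeR and 2.94 by DESeq2 on the recovered reads. Without Flox saline 1-3 it was 2.59, and the cKO value, still 2.60, passed (limma adjusted p = 0.000748). On the same reads, the cKO response was 2.76 by edgeR (adjusted p = 0.000184) and 2.79 by DESeq2 (adjusted p = 2.33e-07). Over the alternatives other than left-out libraries the adjusted p in cKO ran from 2.33e-07 to 0.479. The Flox call was lost with the Flox libraries fitted alone (limma adjusted p = 0.0682) and without Flox carrageenan 1-3 (0.0641) or 4-7 (0.0569), and its adjusted p reached 3.30e-06 at the lowest.

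Chil3 (chr3:106147554-106167564) encodes Ym1, a chitinase-like protein without known enzyme activity that mouse myeloid cells secrete. It was 16.6, 32.8 and 56.1 in Flox saline and 341, 371 and 334 in Flox carrageenan. In cKO it was 10.9, 12.7 and 25.4 with saline and 66.7, 152 and 511 with carrageenan. Its Flox carrageenan libraries differed by no more than 1.11-fold, and its cKO carrageenan libraries by 7.67-fold. The log2 fold change was 3.43 ± 0.59 in Flox (limma adjusted p = 0.00376) and 3.42 ± 0.59 in cKO (limma adjusted p = 0.00641). The related Chil4 held 2 reads and shared no 50-base window with it.

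Plac8 (chr5:100553725-100572245), a small cysteine-rich protein abundant in mouse myeloid cells, was 33.3, 30.5 and 67.9 in Flox saline and 417, 357 and 391 in Flox carrageenan. In cKO it was 11.2, 22.2 and 34.3 with saline and 110, 245 and 553 with carrageenan. Groups again did not overlap within a genotype. Its log2 fold change was 3.21 ± 0.51 in Flox (limma adjusted p = 0.00233) and 3.52 ± 0.51 in cKO (limma adjusted p = 0.00188).

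Vcan (chr13:89655312-89742509) encodes versican, a chondroitin sulfate proteoglycan that binds hyaluronan in the matrix. It was 5.55, 18.8 and 41.0 in Flox saline and 207, 299 and 192 in Flox carrageenan. The cKO libraries gave 12.6, 14.5 and 25.4 with saline and 57.4, 147 and 283 with carrageenan. The log2 fold change was 3.70 ± 0.62 in Flox (limma adjusted p = 0.00309) and 2.93 ± 0.62 in cKO (limma adjusted p = 0.0210). The cKO call depended on the libraries: the adjusted p was 0.0619 with no filter on low values, 0.0811 without cKO carrageenan 5-8, 0.126 without 9-12, 0.112 without cKO saline 1-4 and 0.0794 without 5-8. The response itself was 2.39 to 2.93 over these settings.

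**Figure D1:**
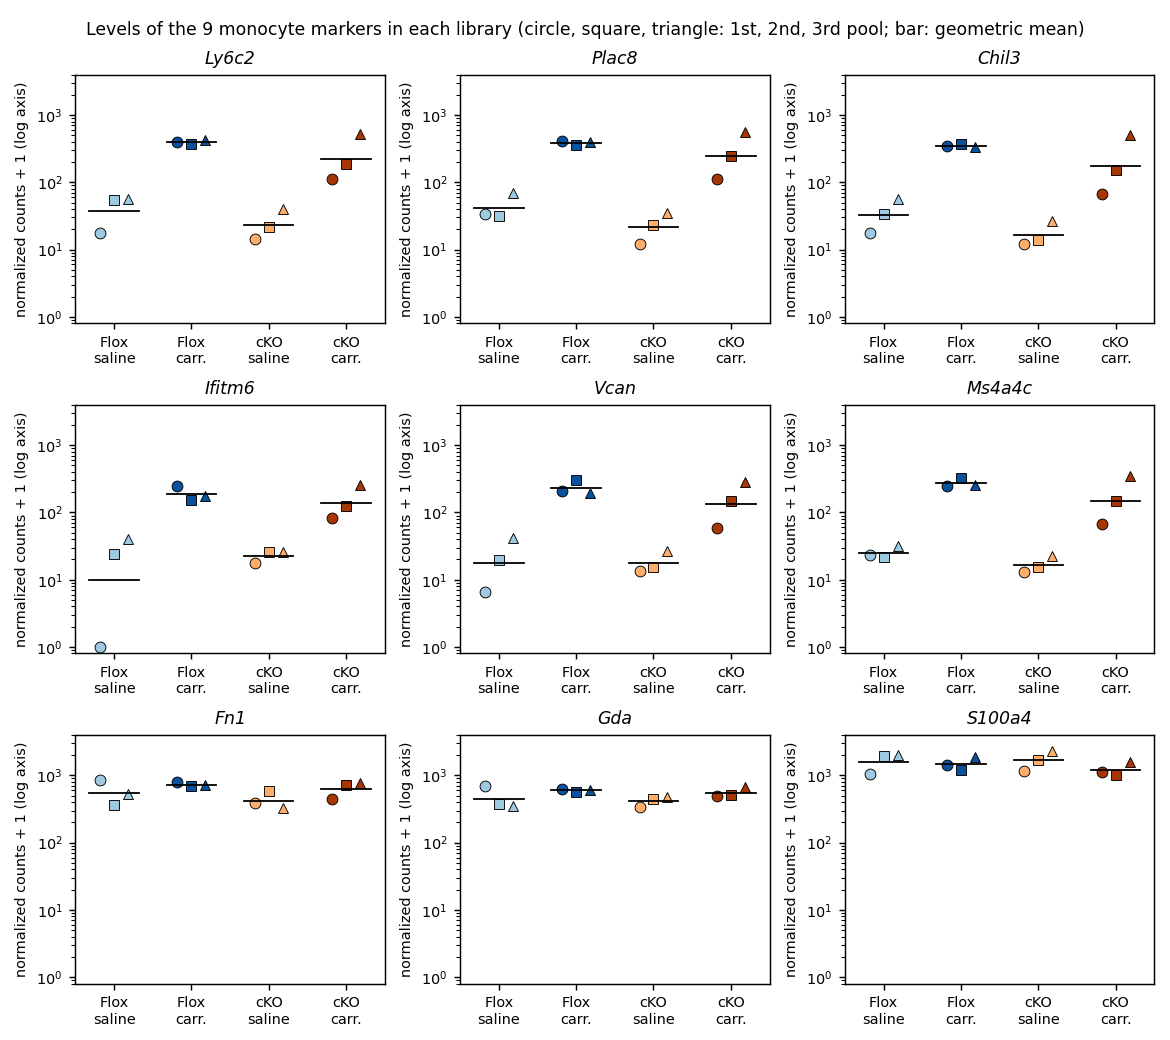
Normalized counts plus 1 (log axis) of each marker in the 12 libraries, with a point per pool and a bar at the geometric mean of the 3 pools of a group. In the upper 6 panels every carrageenan library lies above the saline libraries of its genotype, and the cKO carrageenan pools spread much more widely than the Flox ones, while the lower 3 panels show the markers that did not pass the threshold.

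The other 3 markers did not follow. Fn1 (chr1:71585520-71653200), fibronectin, a matrix protein bound by integrins, was 860, 363 and 537 in Flox saline and 789, 694 and 714 in Flox carrageenan. The cKO pools gave 394, 587 and 326 with saline and 438, 709 and 783 with carrageenan. The groups overlapped in both genotypes. The log2 fold change was 0.40 ± 0.33 in Flox, with a 95% interval of -0.29 to 1.10 (limma adjusted p = 0.478), and 0.56 ± 0.33 in cKO, -0.14 to 1.26 (limma adjusted p = 0.662).

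Gda (chr19:21391307-21473445), guanine deaminase, turns guanine into xanthine. It was 688, 373 and 353 in Flox saline and 632, 568 and 598 in Flox carrageenan. The cKO values were 341, 448 and 473 with saline and 489, 506 and 681 with carrageenan. The Flox groups overlapped through the high value of the shallow saline 1-3 library, and the cKO groups did not overlap. The log2 fold change was 0.41 ± 0.27 in Flox (-0.17 to 0.99, limma adjusted p = 0.380) and 0.40 ± 0.27 in cKO (-0.18 to 0.99, limma adjusted p = 0.768). Of the other purine enzymes, Pnp, which splits purine nucleosides, rose in Flox (1.69 ± 0.37, limma adjusted p = 0.0139), the only call among 3 tested.

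S100a4 (chr3:90603771-90606045), a calcium-binding protein of many motile cells, was 1049, 1923 and 1985 in Flox saline and 1446, 1183 and 1878 in Flox carrageenan. The cKO pools held 1181, 1694 and 2341 with saline and 1128, 1027 and 1573 with carrageenan. It was the only marker with a negative estimate in both genotypes, -0.11 ± 0.33 in Flox (-0.81 to 0.60, limma adjusted p = 0.877) and -0.45 ± 0.33 in cKO (-1.16 to 0.25, limma adjusted p = 0.824). Its family members S100a8 and S100a9, abundant in neutrophils, rose in Flox by 4.77 ± 0.99 (limma adjusted p = 0.0105) and 6.14 ± 0.94 (limma adjusted p = 0.00198). Of 7 relatives tested, these 2 were called in Flox and only S100a9 in cKO (3.95 ± 0.94, limma adjusted p = 0.0371), with family medians of 0.29 and -0.0012.

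In cKO mice carrageenan raised 5 of the 9 markers, Ly6c2, Plac8, Chil3, Vcan and Ms4a4c, where 2.1% of all genes were called higher (limma, adjusted p under 0.05). The median log2 fold change was 2.93 over the 9 markers and -0.07 over all genes. The carrageenan and saline libraries did not overlap for 7 markers, the 6 that rose in Flox and Gda, against 12.6% of all genes. Both edgeR and DESeq2 on the recovered reads called 6 markers in cKO and 6 in Flox. Of all genes tested, edgeR called 4.58% higher in cKO and 3.56% in Flox. DESeq2, run without the filter on low values, called 2.48% and 2.29% of 22055 genes higher. The size of the cKO responses leaned on the carrageenan 9-12 pool, described below: without it the log2 fold change was 2.64 for Chil3, 2.62 for Ly6c2, 2.57 for Ms4a4c and 2.94 for Plac8, all still past the threshold (limma adjusted p = 0.00701 to 0.0292). Without each library in turn the Chil3 value ran from 2.64 to 4.10.

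**Figure D2:**
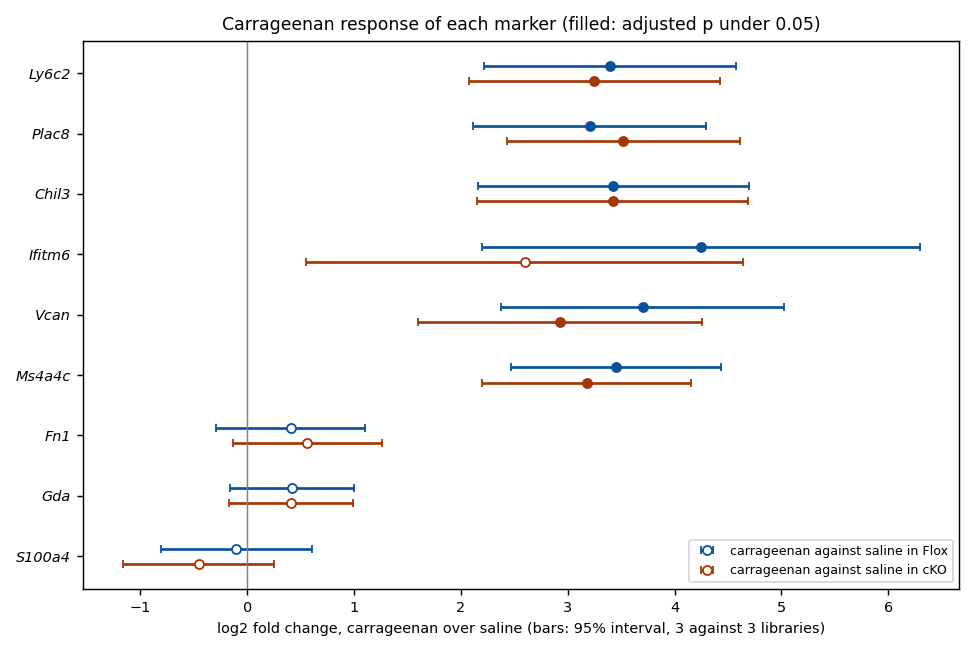
Log2 fold change of carrageenan over saline for each marker in Flox (blue) and cKO (brown), with 95% intervals from limma; filled points passed an adjusted p of 0.05. The 6 upper markers lie between 2.60 and 4.25, and the intervals of Fn1, Gda and S100a4 all include 0.

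Differences between the genotypes' responses did not pass the threshold for any marker. Of 10243 genes, 0% were called for the difference of carrageenan response (limma), and 0 of the 9 markers had an unadjusted p under 0.05 by limma, edgeR or DESeq2. The estimates furthest from 0, cKO minus Flox, were -1.66 for Ifitm6 (95% interval -4.60 to 1.28), which takes in the Flox library without reads, and -0.80 for Vcan (-2.71 to 1.11). The other 4 markers that rose gave -0.30 for Ms4a4c (-1.69 to 1.10), -0.17 for Ly6c2 (-1.86 to 1.52), -0.03 for Chil3 (-1.84 to 1.79) and 0.29 for Plac8 (-1.27 to 1.85). S100a4, Gda and Fn1 gave -0.37, -0.03 and 0.13. The sign was positive for Ly6c2, Chil3 and Ms4a4c by edgeR and DESeq2 and for Vcan by edgeR. The intervals also allow responses that differ more than 2-fold, except that of Gda (-0.84 to 0.77).

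The direct comparison of genotypes used the deposited scale, in which each treatment was normalized on its own. With saline, 0% of 9371 genes were called (limma; 508 genes and 0 markers had an unadjusted p under 0.05). The estimate furthest from 0 was 1.22 ± 1.26 for Ifitm6 (limma adjusted p = 0.727), and it was -0.45 without Flox saline 1-3, the library with no Ifitm6 read. Chil3 gave -0.97 ± 0.58, Plac8 -0.94 ± 0.53, Ly6c2 -0.68 ± 0.61 and Ms4a4c -0.57 ± 0.46 (limma adjusted p = 0.683 to 0.704). Fn1 gave -0.35, Gda -0.08, Vcan 0.04 and S100a4 0.11. The median over the markers was -0.35, against 0.25 over all genes, by limma. These medians moved with the setting: -0.64 and 0.06 by edgeR, -0.49 and -0.19 by DESeq2, and -0.66 and 0.07 by limma without Flox saline 1-3. By DESeq2, 20 genes and no marker were called with saline, and by edgeR no gene; 1 marker (Chil3) by DESeq2 and 2 (Chil3 and Plac8) by edgeR had an unadjusted p under 0.05, as had 4.09% and 7.14% of all genes by these tools. No marker had cKO saline libraries that all lay below the Flox ones, which 5.23% of genes had.

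With carrageenan, 0% of 9151 genes were called (limma; 897 genes and 0 markers had an unadjusted p under 0.05), and all 9 markers had a lower estimate in cKO. The log2 differences were -0.99 ± 0.57 for Chil3, -0.87 ± 0.48 for Ms4a4c, -0.85 ± 0.46 for Ly6c2, -0.76 ± 0.48 for Vcan, -0.64 ± 0.46 for Plac8 and -0.44 ± 0.39 for Ifitm6. They were between -0.11 and -0.27 for Gda, Fn1 and S100a4. The adjusted p-values were 0.526 to 0.857 (limma). The median was -0.64 over the markers and 0.09 over all genes by limma, -0.40 and 0.0019 by edgeR, and -0.37 and -0.21 by DESeq2. No marker had cKO libraries that all lay below the Flox ones, which 6.19% of genes had. DESeq2 called 12 genes and edgeR 0, none of them a marker. In the authors' deposited table for carrageenan the log2 fold changes of the markers were -0.46 to -0.10 with adjusted p-values of 0.675 to 0.899.

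Averaged over both treatments, 1 of 10243 genes was called (0.00976%) and no marker (limma). The marker furthest from 0 was Chil3, at -0.98 ± 0.42 (95% interval -1.89 to -0.07, limma adjusted p = 0.304), followed by Plac8 at -0.79 ± 0.36 (limma adjusted p = 0.327). An unadjusted p under 0.05 was reached by 3 of 9 markers (Chil3, Ms4a4c and Plac8) and 14.9% of all genes by limma. It was reached by Chil3 and 8.58% of genes by DESeq2, and by 3 markers (Chil3, Ly6c2 and Plac8) and 16.5% of genes by edgeR. In 8 of the 12 limma fits that left out a library no marker reached it, and in the others 2 to 4 markers did.

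The cKO carrageenan pools were spread widely for the markers that rose. Within the cKO carrageenan group, 8 of the 9 markers were lowest in pool 1-4, intermediate in 5-8 and highest in 9-12, and S100a4 was also highest in 9-12. Of all 9151 genes tested, 25.8% had that order and 41.6% were highest in 9-12. Pool 9-12 exceeded pool 1-4 by 7.67-fold for Chil3, 5.24-fold for Ms4a4c, 5.02-fold for Plac8, 4.92-fold for Vcan, 4.78-fold for Ly6c2 and 3.21-fold for Ifitm6. For Fn1, S100a4 and Gda the ratios were 1.79, 1.40 and 1.39. In Flox carrageenan the highest pool exceeded the lowest by 1.11-fold to 1.61-fold for the 9 markers. Pool 1-4 lay below all 3 Flox carrageenan libraries for 9 of 9 markers and pool 5-8 for 8 of 9, with Fn1 the exception, against 26.0% and 23.3% of all genes. Pool 9-12 lay above all 3 for 6 of 9, against 23.4% of all genes. The library was also the shallowest cKO library, and the part of depth in its levels was not tested. Fabp5 was lowest in cKO carrageenan pool 1-4, at 6.15 normalized counts, and highest in pool 9-12, at 23.2. These values rest on 72 Fabp5 reads in that group, and their relation to the marker levels was not tested.

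The cKO carrageenan 9-12 library held the highest value of each of the 9 markers in its group. Without it, 3 markers were called lower in cKO than in Flox with carrageenan, and 3.29% of 8908 genes were called lower. They were Ly6c2 (-1.47, limma adjusted p = 0.0163), Chil3 (-1.77, limma adjusted p = 0.0225) and Ms4a4c (-1.47, limma adjusted p = 0.0428). Plac8 (-1.22, limma adjusted p = 0.0693) and Vcan (-1.29, limma adjusted p = 0.107) did not pass. The comparison then rests on 2 cKO pools against 3. Because the library was singled out by its high values of these same markers, leaving it out lowers the cKO side in advance. These calls therefore cannot decide whether the genotypes differ. Leaving out any other single library of this comparison called no marker.

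**Figure D3:**
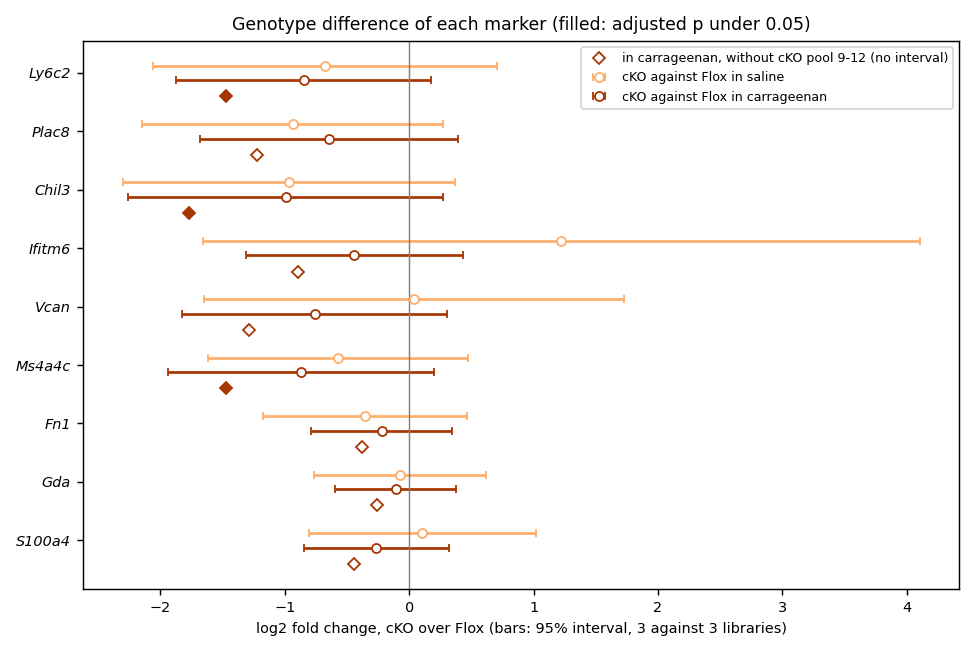
Log2 fold change of cKO over Flox for each marker with saline (light) and carrageenan (dark), circles with 95% intervals from limma, and diamonds for carrageenan without the cKO 9-12 library; filled symbols passed an adjusted p of 0.05. All circle intervals include 0, and the diamonds of Ly6c2, Chil3 and Ms4a4c, at -1.47 to -1.77, are the filled ones.

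The same library order was present with saline, where the cKO pool 9-12 held the highest value of 8 of 9 markers, Fn1 excepted, and of 33.3% of all genes. Saline and carrageenan pools with the same mouse numbers came from differently injected groups, and the labels do not say whether they share animals. Within numbers, the rise from saline to carrageenan on the log2 scale was 2.95, 3.08 and 3.71 for Ly6c2 and 2.51, 3.48 and 4.28 for Chil3 in pools 1-4, 5-8 and 9-12.

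Markers of some other cell types moved along the same libraries. Summed over the 6 markers that rose, the cKO carrageenan pools 1-4, 5-8 and 9-12 held 490, 997 and 2474 normalized counts, and the Flox carrageenan pools 1771 to 1880. The 15 resident macrophage markers, all of them detected, summed to 8099, 7646 and 4368 in the same cKO pools and to 3210 to 4160 in Flox. Neutrophil markers (8 or 9 of 12 detected) summed to 143, 202 and 704 in the cKO pools and to 398 to 730 in Flox (7 to 9 detected), with S100a9 at 30.4, 38.2 and 250 in cKO. Fibroblast markers, 10 of 10 detected, summed to 710, 762 and 1064 in the cKO carrageenan pools and, in the saline pools of the same numbers, to 269, 410 and 678. The pool with the most monocyte marker signal thus had the most neutrophil and fibroblast and the least resident macrophage marker signal of its group. Dendritic cell markers summed to 198, 266 and 193 in the same cKO carrageenan pools, and endothelial and mural markers to 35.6, 53.6 and 46.3. Nonclassical monocyte markers gave 1057, 840 and 808, and mast cell, basophil and eosinophil markers 22.9, 17.8 and 15.4. Lymphocyte and NK cell markers gave 52.3, 85.4 and 110. Ly6g, the defining neutrophil marker and the gate that should remove these cells, had 3 reads in the cKO carrageenan libraries and 1 in the Flox ones. The part of these cells in the marker levels was not tested.

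**Figure D4:**
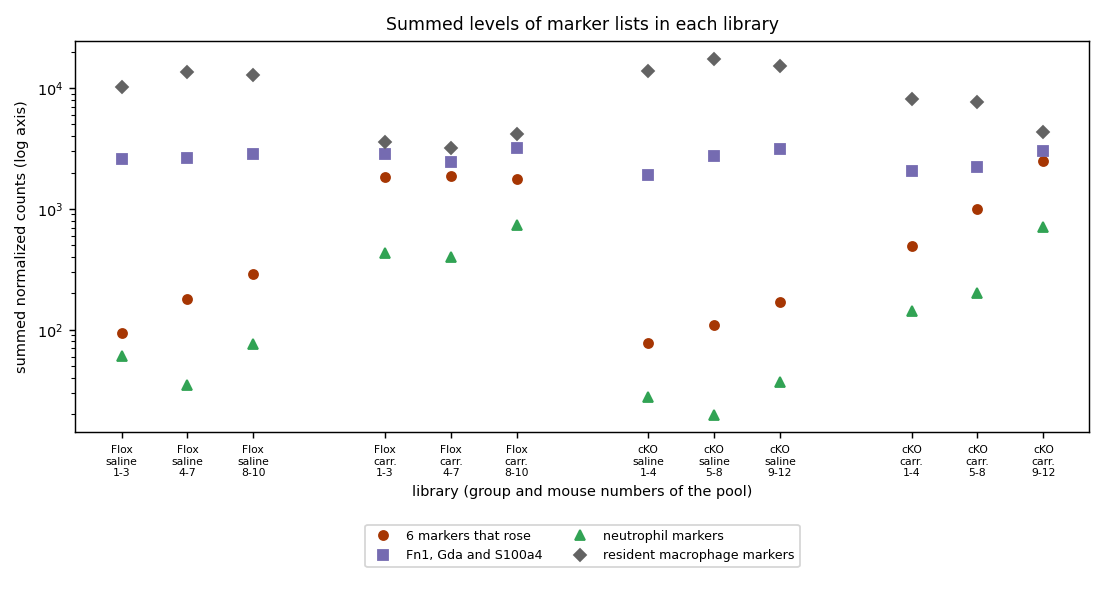
Summed normalized counts (log axis) in each library for the 6 markers that rose with carrageenan, for Fn1, Gda and S100a4, and for the neutrophil and resident macrophage lists. In the cKO carrageenan group the 6 markers run from 490 to 2474 while resident macrophage markers run from 8099 to 4368, and the Flox carrageenan libraries lie close together at 1771 to 1880.

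Other genes of classical monocytes, a list of 20 chosen with earlier results known, gave 10 higher and 0 lower in Flox and 4 higher and 1 lower in cKO (limma). Their median log2 fold changes were 1.25 and 0.90. Thbs1, the matrix protein thrombospondin 1, rose by 3.37 ± 0.56 in Flox and 3.13 ± 0.56 in cKO (limma adjusted p = 0.00309 and 0.00832). Clec4e, the pattern receptor Mincle, rose by 2.47 ± 0.35 and 2.19 ± 0.35 (limma adjusted p = 0.00122 and 0.00364). The kinase gene Fgr rose by 1.44 ± 0.28 and 1.85 ± 0.28 (limma adjusted p = 0.00714 and 0.00292). The gene that fell in cKO, named after its value was seen, was F13a1, a coagulation factor chain that resident macrophages also express, at -1.18 ± 0.27 (limma adjusted p = 0.0327). Nonclassical monocyte genes gave 1 rise among 11 tested in each genotype, Pou2f2 in Flox (1.36 ± 0.36, limma adjusted p = 0.0352) and Itgal in cKO (1.83 ± 0.44, limma adjusted p = 0.0410).

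Of 15 resident macrophage markers, 12 fell and none rose in Flox (median -1.78), and 6 fell and none rose in cKO (median -1.37), by limma, where 2.74% and 0.547% of all genes were called lower. Cd163, a scavenger receptor, fell by 1.98 on the log2 scale in Flox (limma adjusted p = 0.000690) and by 1.39 in cKO (limma adjusted p = 0.00731). Neutrophil genes rose in 5 of 7 tested in Flox and 4 of 7 in cKO, among them Csf3r, the G-CSF receptor, by 2.65 ± 0.43 and 2.46 ± 0.43 (limma adjusted p = 0.00245 and 0.00641).

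Fn1, Vcan and S100a4 are also made by fibroblasts. The 10 fibroblast markers summed to 49.9 to 590 normalized counts in Flox saline and 758 to 1253 in Flox carrageenan, and to 269 to 678 and 710 to 1064 in cKO. Of these genes, 2 of 10 rose in Flox, Dcn (2.07 ± 0.50, limma adjusted p = 0.0216) and Col1a1 (3.08 ± 0.79, limma adjusted p = 0.0300), and 0 of 10 in cKO (limma). The part of fibroblast RNA in the levels of these 3 markers was not tested. Matrix and receptor partners of Fn1 and Vcan gave 3 rises among 15 tested in Flox and 2 in cKO, with Sdc4, syndecan 4, at 1.53 ± 0.31 and 1.63 ± 0.31 (limma adjusted p = 0.00932 and 0.0130).

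Relatives of the markers moved in part. In the Ifitm family Ifitm1 and Ifitm3 rose in both genotypes (2 of 4 tested), Ifitm3 by 2.47 ± 0.49 in Flox and 1.96 ± 0.49 in cKO (limma adjusted p = 0.00820 and 0.0474). In the Ly6 family near Ly6c2, Ly6e and Ly6i rose in Flox (2 of 6) and none in cKO. Ms4a4b was the only Ms4a relative of 7 to rise in Flox (2.85 ± 0.70, limma adjusted p = 0.0238), on 42 reads. Chil1, the only chitinase-like relative of 2 tested to rise, reached 3.45 ± 0.69 in Flox (limma adjusted p = 0.00821), on few reads. All chitinase-like relatives together held 0, 1 and 1 reads in the Flox saline libraries and 6, 3 and 30 in the Flox carrageenan ones. Among 16 genes of monocyte recruitment and growth, 6 rose and 2 fell in Flox and 1 rose in cKO. Csf1, the macrophage growth factor, rose by 4.92 ± 0.63 in Flox (limma adjusted p = 0.000762) and had 2.33 ± 0.63 in cKO (limma adjusted p = 0.0692). The cKO rise was that of Csf2rb, a receptor subunit for GM-CSF (1.75 ± 0.42, limma adjusted p = 0.0375). Whether the carrageenan responses of these lists differed between genotypes was fitted gene by gene, and no gene of 10243 passed the threshold (limma).

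The genes whose profile over the 12 libraries was nearest to the mean of the 9 markers were Nfil3, Ifitm3, Slc2a1, Ifi211 and Mxd1, with root mean square differences of 0.31 to 0.35 log2 units. Timp1, an inhibitor of matrix proteases, was nearest to Ly6c2 (0.42), Chil3 (0.43), Plac8 (0.49) and Vcan (0.35). Mxd1 was nearest to Ms4a4c (0.48) and AA467197 to Ifitm6 (0.29). Among the markers that did not pass, Specc1l was nearest to Fn1 (0.24) and Lcp1 to Gda (0.14). Between the markers, Ms4a4c (0.59) and Ly6c2 (0.59) lay closest to the mean profile, and S100a4 (1.34) and Ifitm6 (1.20) farthest from it. That mean mixes markers that rose with markers that did not, and the Ifitm6 value takes in the Flox saline library without an Ifitm6 read.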

How the data were processed

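CD45+/CD11b+/Ly6G- paw cells were sequenced as 3′ mRNA libraries with molecular identifiers, per the labels' protocols. Per the submitters' processing notes, cutadapt, STAR and GRCm38 were used; the sources used here name no read counter. The authors deposited a signal per gene, normalized counts for saline and carrageenan separately, in which 100% of low values were whole reads times 1 step per library (tolerance 0.001). Per the file headers, the authors' comparison tables hold log2 fold changes, their standard errors, a test statistic (a score, not used), p-values and adjusted p-values.

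From the deposited values, limma 3.58.1 with a mean trend (R 4.3.3) was run on log2 of the value plus 1 for genes with at least 5 in at least 3 libraries, with Benjamini-Hochberg adjustment over all genes and a threshold of 0.05. A larger added value lowered the Flox response: the median log2 fold change of the 9 markers was 3.42, 3.40 and 3.24 with 0.5, 1 and 5 added. Against edgeR the limma median was higher in Flox (3.40 against 3.03) and lower in cKO (2.93 against 3.20). Treatment comparisons used all 12 libraries on 1 scale (medians of ratios over 6501 genes); genotype comparisons used the 6 libraries of a treatment, and the difference and the average all 12, on the deposited scale. edgeR 4.0.16 and DESeq2 1.42.0 on recovered reads, other pseudocounts (0.5 and 5), no filter, other scales and left-out libraries were alternatives. The 121 entries that are not genes (0.170 to 2.23% of reads) were left out. Of the IDs, 55141 matched a symbol. P-values measure the spread between pools. The members, lists and tests were chosen with earlier results of these data known; the named genes were the 9 markers, up to 4 genes per list with the smallest p, close paralogs and nearest profiles, of which some are not reported here. No library was entered more than once: pairs within a group differed beyond sampling noise, with a chi-square of 3.00 to 18.7 per degree of freedom. Same-numbered cKO pools deviated together (correlations 0.247, 0.524 and 0.611 over 5623 genes), and by this rule the numbers were taken to pair them, although carrageenan 1-4 also deviated with saline 5-8 (0.337). Same-numbered Flox pools did not (0.0248, -0.0191 and 0.0861). The main limma fits nevertheless held no term for this pairing, and a block on the pool numbers was run as an alternative. The code was tested on simulated data.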

Additional observations from a re-analysis of the deposited data

How the results depend on the processing

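The 6 markers called in Flox stayed at 5 or 6, and the 5 in cKO at 4 to 6, under the alternatives run. The treatment effects of Ly6c2, Plac8, Chil3 and Ms4a4c passed in all of them. With a replicate block on the pool numbers, 6 markers were called in Flox and 5 in cKO and 0 for the difference, so the block changed no call among the markers. Leaving out 1 library gave 0 to 3 markers called for cKO against Flox with carrageenan. Calls over all genes moved more: 734 in Flox against 278 with its 6 libraries alone and 418 with no filter, and 271 in cKO against 733 by edgeR, 852 by DESeq2, 723 with its 6 libraries alone and 139 with no filter. Leaving out 1 library gave 350 to 1078 genes in Flox and 84 to 521 in cKO. The averaged genotype effect gave 1 gene, against 65 by edgeR, 202 by DESeq2, 8 with a pseudocount of 5, 3 on the common scale, 0 with no filter and 230 without cKO carrageenan 9-12, none of them a marker. With each treatment on its deposited scale, 376 genes rose and 342 fell in Flox, against 453 and 281 on the common scale. Estimates that did not pass the threshold changed sign in these cases, and the cause was not tested. By DESeq2 and edgeR respectively, the averaged genotype effect of Ifitm6 was -0.25 and -0.30, its saline effect -0.11 and -0.26, and the saline effect of Vcan -0.49 and -0.64, the last -0.028 with a pseudocount of 5. The difference of responses was 0.69 and 0.77 for Chil3, 0.32 and 0.37 for Ly6c2 and 0.082 and 0.089 for Ms4a4c, with 0.024 for Gda by DESeq2 and 0.10 for Vcan by edgeR. The log2 estimates that changed sign when 1 library was left out are given by their ranges. For the averaged genotype effect it ran from -0.17 to 0.047 for Gda, -0.45 to 0.90 for Ifitm6 and -0.24 to 0.049 for S100a4. For cKO against Flox with carrageenan it ran from -0.38 to 0.028 for Fn1. For cKO against Flox with saline it ran from -0.23 to 0.20 for Gda, -0.45 to 2.24 for Ifitm6, -0.22 to 0.36 for S100a4 and -0.70 to 0.69 for Vcan. For the Flox response it ran from -0.40 to 0.055 for S100a4. For the difference of responses it ran from -0.80 to 0.65 for Chil3, -0.16 to 0.42 for Fn1, -0.31 to 0.12 for Gda, -2.68 to 0.011 for Ifitm6, -0.79 to 0.41 for Ly6c2, -0.90 to 0.28 for Ms4a4c and -0.29 to 0.86 for Plac8. Depth limits the saline levels most, with 41 to 82 reads per rising marker in the 3 Flox saline libraries together.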
